A study of Mus musculus with 8 samples.

Results

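The cytosolic ribosomal protein genes were taken as the autosomal protein-coding genes named Rpl or Rps plus a digit, with Rpsa, Rplp0, Rplp1 and Rplp2, and without the Rps6k kinase genes and pseudogenes. This rule gave 85 of the 21887 protein-coding genes of the annotation, of which 20665 are autosomal. They were 43 large subunit genes, 30 small subunit genes, 11 paralogues or retrogenes and 1 gene for a binding protein, Rps19bp1. The 73 large and small subunit genes are called the core genes here. The study measured 5-hydroxymethylcytosine (5hmC) in germinal center B cells from the spleen of C57BL/6 mice. TET2, an enzyme that oxidizes 5-methylcytosine to 5hmC, was intact (WT, wild type) or knocked out (KO). DNA carrying 5hmC was immunoprecipitated and sequenced (hMeDIP-seq) in 2 WT and 2 KO libraries, numbered 2 and 3 in both genotypes. No treatment is named in the labels of either genotype. The labels give neither the knockout allele, the cells in which it acts nor the animals behind a library, so a p-value here measures the spread between libraries, which may be technical. The 4 input libraries have no processed values here.

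Cytosolic ribosomes translate nearly all cellular mRNA and consist of a large and a small subunit, each an RNA scaffold carrying its own set of proteins. The genes of these proteins are short, strongly transcribed in most cells and often carry small nucleolar RNA genes in their introns. Their mRNAs start with a pyrimidine tract through which growth signals control translation, and dividing germinal center B cells depend on a large ribosome supply. 5hmC is commonly found at enhancers, beside promoters and along transcribed gene bodies, and is low over the CpG-rich centre of active promoters.

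Peaks were called in each library by the authors, and the lists held 270548 to 300954 peaks covering 110.6 to 139.3 Mb, with KO replicate 3 the lowest in coverage. Tet2 itself had peaks in every library, over 3191 and 2810 bases of its window in WT replicates 2 and 3 and 2444 to 3213 bases in the KO libraries; peaks of 5hmC do not report a deletion, so this checks no label. All 10 germinal center B cell marker genes fixed for the check, Bcl6 and Pax5 among them, had a peak in all 4 libraries, as had 5 of 6 T cell and 4 of 5 myeloid markers, and 5hmC in DNA is not expression. The window of a gene is its span in the annotation plus 2 kb on each side. A gene without a peak has no enrichment past the authors' threshold, which does not show that 5hmC is absent.

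Promoter sequences are shown for members with a 5hmC region near the start and for 2 without one. Only at Rplp0 does the region of all 4 libraries nearest the start overlap the stretch shown. At Rpl26, Rpl38, Rps26 and Rps23rg1 that region lies outside the stretch. Its middle is there at -918, -1876, -894 and 309 bp from the start, in that order. Each runs 5′ to 3′ on the gene's strand from 250 bases before to 20 bases after the RefSeq start (GRCm38.p6), with every CG dinucleotide, the site of methylation and hydroxymethylation, in capitals.
Rplp0, chr5:115559217-115559486, plus strand: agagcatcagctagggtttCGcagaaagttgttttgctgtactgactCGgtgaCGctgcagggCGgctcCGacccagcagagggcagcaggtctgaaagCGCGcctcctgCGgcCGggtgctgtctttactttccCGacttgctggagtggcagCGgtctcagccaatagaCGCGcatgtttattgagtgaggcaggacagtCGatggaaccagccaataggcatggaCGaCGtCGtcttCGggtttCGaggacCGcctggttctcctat
Rpl26, chr11:68901316-68901585, plus strand: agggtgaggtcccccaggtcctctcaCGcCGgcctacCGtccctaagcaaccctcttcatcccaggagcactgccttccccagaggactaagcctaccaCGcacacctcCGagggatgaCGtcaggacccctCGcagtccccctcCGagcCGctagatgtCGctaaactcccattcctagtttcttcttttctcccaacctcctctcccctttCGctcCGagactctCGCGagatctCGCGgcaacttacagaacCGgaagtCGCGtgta
Rpl38, chr11:114668330-114668599, plus strand: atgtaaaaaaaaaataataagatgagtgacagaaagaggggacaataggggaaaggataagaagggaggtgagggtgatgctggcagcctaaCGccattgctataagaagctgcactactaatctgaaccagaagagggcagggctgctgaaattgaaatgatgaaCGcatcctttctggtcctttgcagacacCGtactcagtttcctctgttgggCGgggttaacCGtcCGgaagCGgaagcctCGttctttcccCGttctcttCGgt
Rps26, chr10:128626487-128626756, minus strand: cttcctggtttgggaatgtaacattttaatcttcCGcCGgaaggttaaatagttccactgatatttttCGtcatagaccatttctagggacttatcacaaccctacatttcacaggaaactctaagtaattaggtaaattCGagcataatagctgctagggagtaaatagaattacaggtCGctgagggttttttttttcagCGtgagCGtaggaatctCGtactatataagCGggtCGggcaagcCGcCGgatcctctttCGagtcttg
Rps23rg1, chr8:3567748-3568017, plus strand: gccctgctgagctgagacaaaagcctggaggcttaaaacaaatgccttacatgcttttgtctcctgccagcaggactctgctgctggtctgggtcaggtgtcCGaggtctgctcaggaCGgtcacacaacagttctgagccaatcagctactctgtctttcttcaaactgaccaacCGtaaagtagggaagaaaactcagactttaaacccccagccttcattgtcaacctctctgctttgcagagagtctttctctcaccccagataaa
Rpl9, chr5:65391412-65391681, minus strand: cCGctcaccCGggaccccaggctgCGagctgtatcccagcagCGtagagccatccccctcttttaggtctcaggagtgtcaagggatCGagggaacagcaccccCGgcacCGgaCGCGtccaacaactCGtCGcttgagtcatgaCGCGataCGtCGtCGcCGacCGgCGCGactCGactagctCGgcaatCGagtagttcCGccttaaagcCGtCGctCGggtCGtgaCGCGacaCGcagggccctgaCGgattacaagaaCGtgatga
Rps18, chr17:33955646-33955915, minus strand: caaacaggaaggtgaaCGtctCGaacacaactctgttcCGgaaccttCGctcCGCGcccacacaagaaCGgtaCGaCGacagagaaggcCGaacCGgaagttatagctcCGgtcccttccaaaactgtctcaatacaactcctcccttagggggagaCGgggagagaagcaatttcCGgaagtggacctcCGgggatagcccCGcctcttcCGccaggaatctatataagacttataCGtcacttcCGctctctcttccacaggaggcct

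These stretches held 20 CG dinucleotides in Rplp0, 19 in Rpl26, 10 in Rpl38, 13 in Rps26 and 3 in the retrogene Rps23rg1. The pair without a peak in the window held 33 (Rpl9) and 19 (Rps18). Promoter entries matched 65 members, 53 of them core genes, and 16457 autosomal genes. Over the full 300 bases of an entry (250 before to 50 after the start) the members had a median of 21 CG dinucleotides, from 2 to 42, against 14 in all genes and 21 in the mitochondrial ribosomal protein genes. Members with no peak in any library had a median of 22 (30 genes) and the others 21 (35 genes), close to each other. The letters CTTTC, as a simple stand-in for the start of the pyrimidine tract, were searched on each strand between 30 bases before and 50 bases after the start. They stood on the gene's strand in 30 of 65 members (46.2%) and in 9.08% of all genes, and on the opposite strand in 10.8% and 8.37%. A match is a description of letters and does not show a functional site.

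Cytosolic ribosomal protein genes carried few 5hmC peaks in both genotypes. No library had a peak in the window of 37 of the 85 members (43.5%), against 15.1% of autosomal protein-coding genes. A peak was present in all 4 libraries at 20 members (23.5%), against 74.1% of autosomal genes. Short windows hold fewer peaks, and the members' spans ran from 374 to 16779 bp with a median of 3230 bp. Among genes whose window fell in the middle range of the members (6334 to 8715 bp), 21 of 43 members (48.8%) and 651 of 1864 genes (34.9%) had no peak, so the gap was smaller between genes of like length. The members without a peak also had the shorter spans, with a median of 2772 bp against 4066 bp in the 48 others.

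**Figure D1:**
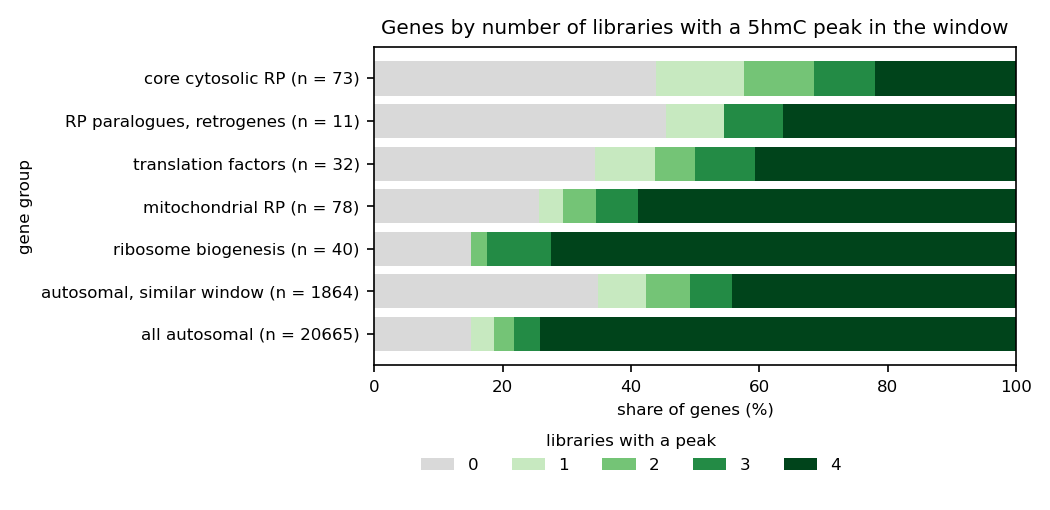
Share of genes (x axis, percent) by the number of libraries with at least 1 peak in the window, for each gene group (y axis, n in brackets). The grey part, genes with no peak, is 43.8% of core cytosolic ribosomal protein (RP) genes, 25.6% of mitochondrial RP genes, 34.9% of autosomal genes of similar window length and 15.1% of all autosomal genes.

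Genes of both subunits lacked peaks. Of the large subunit genes, 20 of 43 had no peak: Rpl3, Rpl4, Rpl6, Rpl7, Rpl9, Rpl11, Rpl13, Rpl13a, Rpl15, Rpl23a, Rpl27, Rpl27a, Rpl29, Rpl30, Rpl35, Rpl35a, Rpl37, Rpl37a, Rpl41 and Rplp1. Rpl11 is known for binding the p53 regulator Mdm2 when ribosome assembly fails, and Rplp1 is a protein of the stalk that recruits elongation factors. The small subunit genes without a peak were 12 of 30, among them Rpsa, Rps9, Rps10, Rps12, Rps13, Rps15, Rps18, Rps23 and Rps25. Of the paralogues and retrogenes, Rpl22l1, Rpl32l, Rpl36al, Rpl39l and Rps27rt had none, 5 of 11. These names were listed after their values were seen.

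In the libraries taken singly, WT replicate 2 had a peak at 35 members, WT replicate 3 at 40, KO replicate 2 at 29 and KO replicate 3 at 30. The WT counts were thus the higher ones, while in all autosomal genes the share with a peak was 79.3%, 81.3%, 79.4% and 78.6% in the same order. Peaks covered 2.61% of the pooled core windows in WT replicate 2, 3.02% in WT replicate 3, 2.26% in KO replicate 2 and 1.93% in KO replicate 3. All autosomal windows together were covered at 4.92%, 5.35%, 5.26% and 4.19%. The paralogues and retrogenes stood apart from the core genes, with 6.41%, 5.91%, 5.31% and 5.48% of their windows covered, much of it from Rps23rg1.

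Within the windows the core genes themselves were less covered than their flanks. The spans of the core genes were covered at 1.99% and 2.11% in WT replicates 2 and 3 and at 1.51% and 1.17% in KO replicates 2 and 3. Their 2 kb flanks were covered at 3.17%, 3.84%, 2.95% and 2.62% in the same order, higher in every library. Over all autosomal genes span and flank were closer, at 4.17% to 5.31% and 4.46% to 5.83%.

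The nearest region with a peak in all 4 libraries lay a median of 5874 bp from the span of a member, against 2642 bp for autosomal genes of similar window length. It lay inside the span of 8 members (9.41%), against 21.7% of those genes. It was more than 10 kb away at 18 members, and farthest at Rplp2, the partner of Rplp1 in the stalk, at 27559 bp. Rpl22l1 followed at 18244 bp, Rps18 at 17583 bp and Rps7 at 16735 bp.

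Around the gene start the core genes with a promoter entry had a one-sided gap. In all 4 libraries no peak base fell in the first 1250 bp after the start of any of these 53 genes. The 20 members without an entry are not covered, among them Rpl17, which had a region of all 4 libraries in its span. At some genes the start used lay inside the span, by 4707 bp at Rpl19 and 2604 bp at Rpl18. Mean coverage of the 53 genes was 0.83% between 500 and 2000 bp after the start (0.619% to 0.97% over the libraries). All autosomal genes had 5.62% there and those of similar window length 5.69%. Between 2 and 5 kb after the start the 53 genes had 1.45%, against 5.65% in all genes and 4.26% in those of similar window length. Between 5 and 10 kb they had 3.20%, against 5.66% and 6.41% in the same order. On the upstream side the values lay on both sides of those of all genes. They were 5.88% between 500 and 2000 bp before the start (4.67% to 6.77%) against 6.43%, 4.35% between 2 and 5 kb (3.396% to 5.365%) against 6.23%, and 8.22% between 5 and 10 kb (6.72% to 8.90%) against 6.12%.

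**Figure D2:**
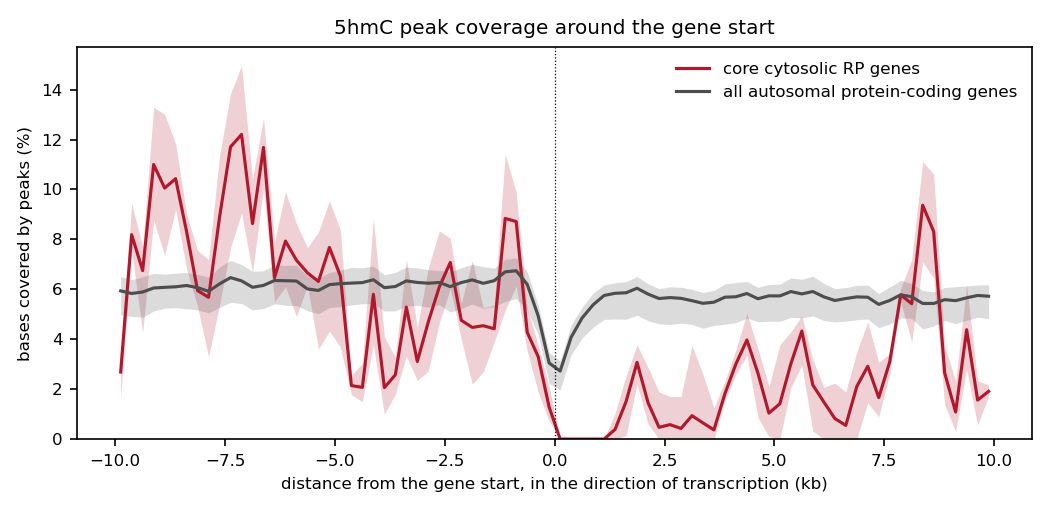
Mean share of bases covered by peaks (y axis, percent, 250 bp bins) against the distance from the gene start in the direction of transcription (x axis, kb), for 53 core genes and 16457 autosomal genes, with lines for the mean and bands for the lowest and highest of the 4 libraries. Core genes sit at 0 over the first 1250 bp after the start, where all genes climb back from their dip.

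A peak reached the 300 bp promoter entry at 3 of 65 members (4.62%, against 7.66% of all genes): Rplp0, Rps16 and Rps23rg1. Rplp0, which anchors the stalk of the large subunit, was the one member with such a peak in all 4 libraries, over 155 bases in WT replicate 2, 119 in WT replicate 3, 230 in KO replicate 2 and 50 in KO replicate 3. The KO libraries gave both the largest and the smallest of these values. Within 1 kb of the start 15 members (23.1%) had a peak in any library, against 30.8% of all genes, and within 2 kb 23 members (35.4%), against 50.5%.

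Merging the peaks of the 4 libraries gave 69 regions in member windows, of which 26 overlapped a span and 43 lay in a flank. By strand, 23 were upstream of the gene and 13 downstream, and 7 flanked genes of unknown strand. Another gene's span held 11 of them, so these cannot be assigned to the member. Regions in all 4 libraries were 27 of 69 (39.1%), against 60.2% of all autosomal regions. Their mean fold enrichment over the caller's background ran from 3.22 to 15.8, with a median of 4.57. The member peaks were low in their own lists, at a median percentile of 24.6 in WT replicate 2, 22.7 in WT replicate 3, 17.1 in KO replicate 2 and 22.3 in KO replicate 3.

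At Rpl38, a large subunit protein known for its part in the translation of Hox mRNAs, the region chr11:114666444-114666963 had fold enrichments of 12.2 in WT replicate 2, 9.54 in WT replicate 3, 10.4 in KO replicate 2 and 8.01 in KO replicate 3. The genotypes overlapped. At Rpl26, a large subunit protein near the exit tunnel, the region chr11:68900246-68901050 lay upstream of the sequence shown above, 515 bp from the span, with folds of 9.01, 8.21, 9.24 and 6.57 in the same order. At both genes KO replicate 3 had the lowest fold. It also had the lowest median fold over all its peaks, 4.38 against 4.89 to 5.51.

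Among the paralogues, Rps23rg1, a retrogene of Rps23 whose product is not a ribosomal subunit, had the densest coverage in bases. Its region chr8:3568658-3569461, inside the span and centred 1062 bp after the start, had folds of 11.3 in WT replicate 2, 11.0 in WT replicate 3, 9.35 in KO replicate 2 and 8.93 in KO replicate 3. The region chr5:115108901-115109602 in the span of Rpl37rt had 12.5, 9.14, 12.6 and 8.43 in the same order. A fold of at least 5 in all 4 libraries was reached by 9 of the 69 regions, among them 3 at Rps23rg1 and those at Rpl38, Rpl26, Rpl19, Rpl37rt and Rpl3l, the muscle form of Rpl3. Of the 9, 4 were at core genes.

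**Figure D3:**
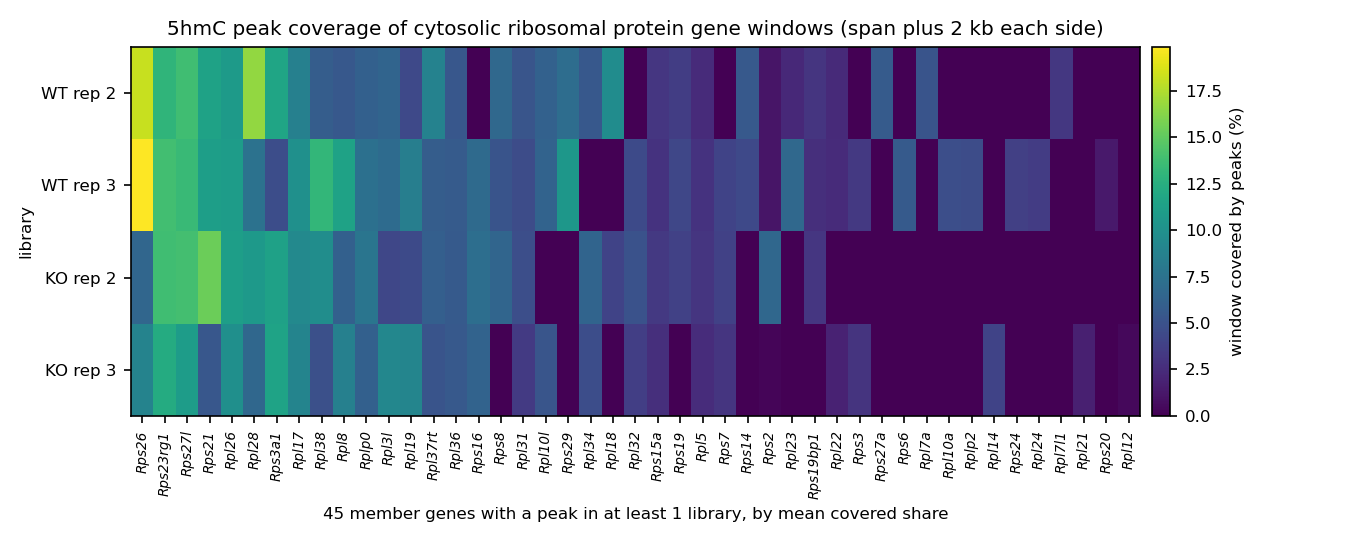
Share of the window covered by peaks (colour, percent) for 45 of the 48 members with a peak in at least 1 library (x axis, by mean share) in each library (y axis). Rps26 is higher in both WT libraries than in both KO libraries, the next 2 genes are near 13% on average with less spread, and the right side of the plot is mostly genes seen in 1 library.

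The highest mean shares of the window covered were those of Rps26 (13.4%), Rps23rg1 (13.2%), Rps27l (13.03%), Rps21 (10.8%) and Rpl26 (10.7%). Rps27l is a p53-induced paralogue of Rps27, and Rps21 and Rps26 are small subunit proteins. The first place of Rps26 comes from the WT libraries (18.2% in replicate 2 and 19.9% in replicate 3), and in KO replicates 2 and 3 it had 6.57% and 8.88%, under Rps23rg1 (13.8% and 12.2%) and Rps27l (13.9% and 11.0%). The 5 lowest cannot be ranked, since the 37 members without a peak tie at 0. Small nucleolar RNA genes lay in the span of 28 members, and 13 of these had no peak, against 24 of the 57 members without such a gene. Pseudogenes named after the member are annotated for 59 members, 26 of the 37 without a peak and 33 of the 48 others. Another protein-coding gene reached into the window of 44 members, and 22 of these had no peak, against 15 of the other 41. The part of read mapping between genes and pseudogene copies, and of neighbouring genes, in the low coverage was not tested.

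The first comparison of the genotypes used the authors' deposited table of regions enriched in WT cells, whose compared libraries are not stated. It placed a region in the window of 2 of the 85 members (2.35%), against 24.9% of autosomal genes. Within the middle range of window lengths it was 2 of 43 members (4.65%) against 6.28% of genes, so the share was near that of genes of like length. For Rpl38 the authors' deposited table listed chr11:114666469-114666697, 1120 bp outside the span with its middle at -1997 bp from the start shown above, with a score of 4.42. That interval lies in the region described above, which had a peak in every library with folds that overlapped between genotypes. The authors' deposited table of regions enriched in KO cells had none in a member window, against 0.0871% of autosomal genes. The same libraries may underlie these tables and the peak lists, so they are not independent.

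By presence of peaks, 6 of the 69 regions were found in both WT and neither KO library (8.70%, against 1.92% of all autosomal regions). Those at Rps14, Rps26, Rps29 and Rpl23 were among them. The region in the Rpl23 window meets the span of another gene, 1700001P01Rik, so it cannot be assigned to Rpl23. The folds of all 6 were low, from 2.84 to 4.76, with 28 to 45 reads at the summit. A single region, at the edge of the Rpl12 window, was found in both KO and neither WT library (1.45% against 1.29%). A further 16 regions were found in 1 library, 6 in each WT library and 2 in each KO library. These counts rest on weak peaks, and none of the 6 reached a fold of 5. At 5-fold or more, 17 regions remained, and 1 was counted for each genotype. Both were other regions, with peaks in all 4 libraries (folds in replicates 2 and 3 in brackets). In the Rpl5 window a region passed in both WT libraries (5.69 and 5.60) and neither KO library (3.29 and 3.98). That region meets the span of another gene, Dipk1a. At Rps27l a region passed in both KO libraries (5.66 and 5.93) and neither WT library (4.97 and 4.23).

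Coverage per gene was compared by the bases covered, scaled to equal totals per library. Rps26 had 1114 scaled bases in WT replicate 2, 1090 in WT replicate 3, 367 in KO replicate 2 and 614 in KO replicate 3. The KO libraries lay below both WT libraries. The region chr10:128624713-128625142 inside the span had a peak in the WT libraries alone, at folds of 4.24 in replicate 2 and 3.15 in replicate 3. The upstream region chr10:128627197-128627604, 690 bp outside the span, had a peak in all 4, at 5.18, 4.73, 3.82 and 2.49. The log2 change of Rps26, KO against WT on the scale of log2(scaled bases + 200), was -0.94 with a standard error of 0.26, and limma's adjusted p was 0.9999.

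**Figure D4:**
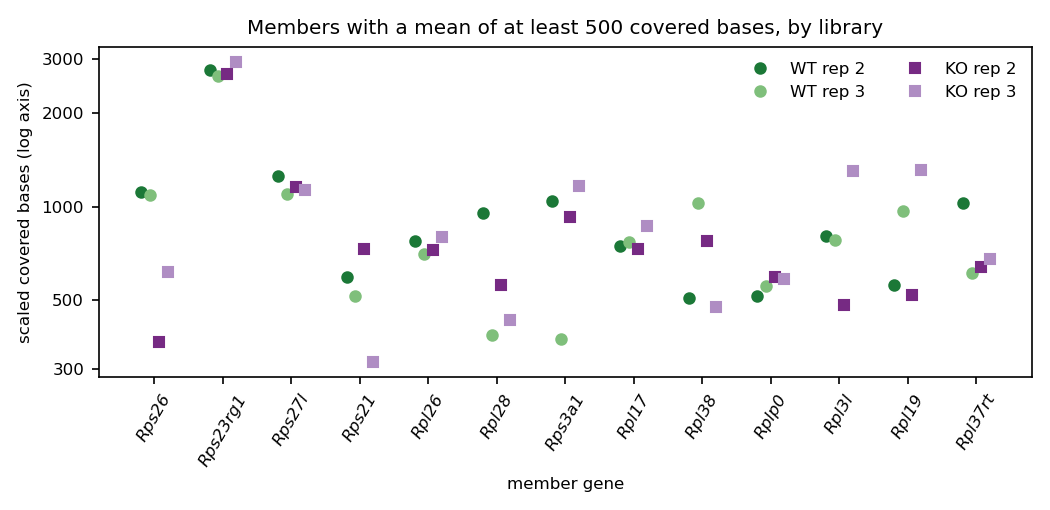
Scaled covered bases (y axis, log scale) in each library for 13 of the 14 members whose mean over libraries reached 500 covered bases (x axis), with WT as green circles and KO as purple squares. Rps26 is the one gene with both KO points below both WT points, and at most other genes the points of the genotypes interleave.

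No gene passed an adjusted p of 0.05 in limma among 13998 tested (0% called), and 591 had an unadjusted p under 0.05. The filter on low values kept 14 of the 85 members, 10 of them core genes. Of these 14, 6 had a lower and 8 a higher value in KO, with a median log2 change of 0.03 against -0.01 over all genes tested, and Rps26 alone had an unadjusted p under 0.05. Rps3a1, whose protein sits on the small subunit, had 1044 scaled bases in WT replicate 2, 374 in WT replicate 3, 925 in KO replicate 2 and 1162 in KO replicate 3. The single low WT library set its log2 change of 0.55 (standard error 0.40), which was -0.01 without WT replicate 3. At Rpl28, a large subunit gene, the values were 951, 386, 558 and 430 in the same order, with a log2 change of -0.25 (standard error 0.40). This change was -0.73 without WT replicate 3 and -0.12 without KO replicate 3, and without WT replicate 2, the high library, the gene fell under the filter.

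Rpl37rt had a log2 change of -0.21 (standard error 0.27), Rpl38 of -0.20 (0.36) and Rps21 of -0.12 (0.37). Their signs rest on single libraries: the change was 0.08 at Rpl37rt without WT replicate 2, 0.07 at Rpl38 without KO replicate 3 and 0.20 without WT replicate 3, and 0.30 at Rps21 without KO replicate 3. Rplp0 had 517 and 555 scaled bases in WT replicates 2 and 3 and 594 and 585 in KO replicates 2 and 3, both KO values above the WT ones, with a log2 change of 0.10 (standard error 0.25). Rps23rg1 (0.05, standard error 0.13) and Rpl19 (0.14, standard error 0.43) were also among the 5 higher members with the smallest p. All of these had an adjusted p of 0.9999 in limma, and Rpl17, Rpl26, Rpl3l and Rps27l had log2 changes from -0.03 to 0.06.

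Among the 48 members with any peak, both KO values lay below both WT values at 8 (16.7%, against 15.9% of autosomal genes with a peak), among them Rpl22, Rpl23, Rps14, Rps19, Rps26 and Rps29. Both lay above at 6 (against 13.3%), among them Rpl5, Rpl12, Rpl32, Rplp0 and Rps16. The first share is near that of all genes. Among the 14 members tested, both KO values lay below at 1 (Rps26), against 16.8% of the autosomal genes tested, and above at 2, Rplp0 among them, against 13.9%. Rps19, the small subunit protein mutated in Diamond-Blackfan anaemia, is in the first set through the absence of a peak in KO replicate 3 and small differences otherwise.

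Summed over all members, 169.8 bases of member windows were covered per Mb of peaks in WT replicate 2, 164.7 in WT replicate 3, 132.7 in KO replicate 2 and 147.0 in KO replicate 3. The WT mean was 167.2 ± 3.59 (SD, n = 2) and the KO mean 139.8 ± 10.1 (SD, n = 2), a difference of -27.4. The exact two-sided permutation p was 0.333, the smallest that 2 libraries against 2 can give. With peaks of at least 5-fold the difference was 9.1 in the other direction (exact permutation p = 1), with 94.71, 84.31, 83.95 and 113.3 bases per Mb of peaks in WT replicates 2 and 3 and KO replicates 2 and 3. The KO share was thus lower with all peaks and not with the stronger ones.

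The lists of other protein synthesis genes held smaller shares without a peak, and their genes can be longer. Median spans were 7690 bp in the mitochondrial, 15204 bp in the biogenesis and 15017 bp in the translation factor list. No peak was found at 20 of 78 mitochondrial ribosomal protein genes (25.6%), 6 of 40 ribosome biogenesis genes and 11 of 32 translation factor genes (34.4%). Of 7 ribosomal protein genes outside the naming rule or on the X chromosome, such as Fau and Rack1, 2 had no peak. Peaks covered 3.045%, 3.577%, 3.265% and 2.665% of the pooled mitochondrial windows in WT replicates 2 and 3 and KO replicates 2 and 3. In the same order, biogenesis windows had 4.02%, 4.14%, 3.98% and 2.76%, and translation factor windows 2.21%, 2.42%, 2.62% and 1.43%. The members had 3.18%, 3.45%, 2.73% and 2.44%, above the translation factors in every library. The core genes alone had 2.61%, 3.02%, 2.26% and 1.93%, above the translation factors except in KO replicate 2. Low pooled coverage was thus not particular to the members, though their share without a peak (43.5%) was higher than in these lists. A region of the authors' deposited table of WT-enriched regions lay at 5 of the 78 mitochondrial (6.41%), 8 of the 40 biogenesis (20%) and 2 of the 32 translation factor genes (6.25%). The share was 24.9% in all autosomal genes, whose median window was 21491 bp. Median windows of the lists were 11690, 19204 and 19017 bp in the same order, and genes of like length were not compared here. In limma, 18 of 30 mitochondrial genes tested were lower in KO and 12 higher (median log2 change -0.06). Of 25 biogenesis genes 18 were lower and 7 higher (-0.07), and of 11 translation factors 8 were lower and 3 higher (-0.07). Over all 13998 genes tested, 7315 were lower and 6683 higher (-0.01). No gene of the 3 lists passed the adjusted p, with 2, 1 and 0 genes at an unadjusted p under 0.05. The smallest p belonged to Mrps6, of the small mitochondrial subunit (log2 change -0.81, standard error 0.25), Polr1a, the large subunit of RNA polymerase I (-0.53, 0.21), and Eif4a1, the initiation helicase (-0.35, 0.31).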

How the data were processed

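The deposited lists give 5hmC peaks of 4 immunoprecipitated libraries. MACS2 2.1.0.20151222 and BWA 0.7.12-r1039 are named, with GRCm38.p3, per the submitters' processing notes. Peaks were called per library. In the deposited lists each peak has a fold (the ratio of the summit to a local background), a −log10 p and −log10 q, and a deposited score. The authors also deposited tables of WT-enriched and KO-enriched regions, per the file headers, with a score of unstated scale. Read depth is not given. Summit reads were recovered from the fold and −log10 p of all 189 member peaks, within 0.001, with a median local background of 8.66 to 11.7 reads. Gene spans and promoters came from RefSeq GRCm38.p6 (a start is that of the entry nearest the span's 5′ end).

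Covered bases per window (span plus 2 kb each side), scaled to equal totals, were tested as log2(bases + 200) with limma 3.58.1 in R 4.3.3 (trend, robust), after removing genes with a mean under 500 bases, with Benjamini-Hochberg adjustment. This scale understates fold changes where coverage is small. The fit was tested on simulated data. Single values per library were compared by exact permutation. Members and lists were chosen with earlier results of these data known. Named members were those with a WT-enriched or KO-enriched region, the 5 highest and 5 lowest in covered share, the 5 smallest p in each direction, members with a promoter peak in all 4 libraries, those without any peak (by count if over 10), and the gene of smallest p of each other list. Other members, including those without a peak, were named after their values were seen, to list what a count holds. Alternatives covered pseudocount, filter, scaling, window, peak strength and number, each library left out, and the replicate number as a block. Same-numbered libraries were compared by their deviations from the genotype mean. Results of a few members are not reported here by name.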

Additional observations from a re-analysis of the deposited data

How the results depend on the processing

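No gene was called in limma under any alternative, replicate block included, and the smallest adjusted p was 0.0838, without KO replicate 2. The numbers are not shown to pair the libraries (correlation 0.0896 over 13998 genes). With the replicate block the tested members' median stayed 0.03 and 0 genes were called, with 924 at an unadjusted p under 0.05. That median was -0.16 with no filter (48 genes), -0.052 with no scaling, -0.066 with 5 kb flanks and 0.24 with 5-fold peaks (6 genes), and -0.02 to 0.10 with each library left out. No scaling shifted the median of all genes to -0.10, gave -0.15 for the mitochondrial and -0.16 for the biogenesis genes, and left 10 of 14 members lower. Rps26 was negative throughout where it could be computed (-0.67 to -1.21 with each library left out). Rpl28 ranged from -0.73 to -0.12 with each library left out that kept it above the filter. Signs turned at Rpl37rt (0.23 with 5-fold peaks, -0.51 to 0.08 with each library left out), Rpl38 (-0.59 to 0.20), Rps21 (-0.19 to 0.30), Rps3a1 (-0.01 to 1.11), Rps23rg1 (-0.05 with no scaling, -0.01 to 0.11) and Rpl19 (-0.18 in the span, -0.19 with equal peak numbers, -0.40 to 0.67), and the cause was not tested.

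Members with a WT-enriched region were 0 when scores under 5 were dropped (14% of all genes), 1 in the span (22.5%) and 8 with 5 kb flanks (28.2%). Members without a peak were 63 in the span, 19 with 5 kb flanks and 72 with 5-fold peaks, against 26.2%, 6.76% and 31.5% of all genes, and 37 to 43 with each library left out. The difference in bases per Mb of peaks was 9.1 with 5-fold peaks and -34.5 to -20.2 with each library left out. Members with both KO values above both WT values fell from 6 to 1 with no scaling and to 2 with equal peak numbers. Those with both KO values below stayed at 8 in both settings. The shares over all genes were not computed for these settings, so the counts are not read as a result about the members. With 5-fold peaks 9 of 17 regions were in all libraries. In both WT and neither KO library there was 1, which had weaker peaks in the KO libraries. A 5-fold peak lay within 1 kb of the start at 7 of 65 members (10.8%), against 15.15% of all genes. With each library left out there were 62 to 67 regions. Those in the WT and no KO library were 9 (without KO replicate 3) to 12 (without either WT replicate), and 11 without KO replicate 2. Those in the KO and no WT library were 3 to 4 (4 without WT replicate 3). Fewer libraries enter these counts. Shares over all autosomal regions were not computed with 5-fold peaks or a library left out, so these region counts are not read as a result about the members. Alternatives on members without a peak, and the libraries left out for regions and starts, were chosen after seeing the data.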
